A study of Homo sapiens with 32 samples.

Results

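The comparison described here is the effect of all-trans retinoic acid (ATRA) in MM.1S cells, a human multiple myeloma cell line, that had first been pulsed with carfilzomib (Cfz). The ATRA+Cfz library came from cells pulsed for 1 h with Cfz and then kept for 12 h in fresh medium with 10 µM ATRA, per the labels' protocols. The Cfz library came from cells given the same 1 h pulse and then kept for 12 h in medium with the vehicle DMSO. The ATRA libraries came from cells pulsed with DMSO and then kept with 10 µM ATRA, and the DMSO libraries from cells that received DMSO in both steps. No source used here states the Cfz dose. The comparison rests on 1 ATRA+Cfz library and 1 Cfz library, which are 8 of the 32 samples because each of the 8 libraries was sequenced on 4 lanes. All 24249 gene IDs of the table were set side by side between the 2 libraries, and 15827 of them passed a minimum of 0.5 FPM (the fragment counts of a gene scaled to the depth of its library) and were tested. The 3 ATRA and 3 DMSO libraries served to show the ATRA effect without Cfz and to give the spread between libraries.

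ATRA is a vitamin A derivative that enters the nucleus and binds retinoic acid receptors. These receptors sit on DNA as heterodimers with retinoid X receptors, and on binding ATRA they release corepressors and recruit coactivators. In haematopoietic cells ATRA is known for driving differentiation and slowing the cell cycle. Carfilzomib binds irreversibly to the proteasome subunit PSMB5 and blocks its chymotrypsin-like activity. Plasma cells secrete large amounts of antibody and depend on protein degradation, and proteasome inhibitors are a mainstay of myeloma therapy for that reason. Unfolded proteins that accumulate after such inhibition are known to activate the heat shock response and the unfolded protein response of the endoplasmic reticulum (ER). New synthesis of proteasome subunits is also known to follow such inhibition.

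Depth was 14136937 reads in the ATRA+Cfz library and 15245884 reads in the Cfz library, and 14381173 to 17155331 reads in the other 6, so that 3 reads corresponded to 0.212 FPM with ATRA+Cfz and 0.197 FPM with Cfz. DMSO 3 stood apart from the other DMSO libraries. Mitochondrially encoded genes took 5.85% of its reads, against 4.12% and 4.09% in DMSO 1 and DMSO 2, 5.72% in ATRA+Cfz and 5.43% in Cfz. Of the 8 markers that define plasma cells in this list, all were detected in both libraries, with a summed level of 8850 FPM in ATRA+Cfz and 7416 FPM in Cfz. Summed over each list of another cell type, T and NK cell markers reached 3.32 FPM in ATRA+Cfz and 3.94 FPM in Cfz, myeloid markers 13.9 FPM in ATRA+Cfz and 23.6 FPM in Cfz, stromal markers 23.3 FPM in ATRA+Cfz and 24.7 FPM in Cfz and epithelial markers 2.76 FPM in ATRA+Cfz and 4.13 FPM in Cfz. Most of the myeloid sum was CD68, at 11.7 FPM in ATRA+Cfz and 22 FPM in Cfz, and most of the stromal sum was the collagen COL6A3, at 20.6 FPM in ATRA+Cfz and 21.8 FPM in Cfz. CD68 was called lower, as was the T cell receptor subunit CD3E (0.214 FPM in ATRA+Cfz, 1.05 FPM in Cfz), and the part of such cells in the results was not tested.

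ATRA given after Cfz changed a wide set of transcripts. In the limma fit, 4818 of the 15827 genes passed an adjusted p (Benjamini-Hochberg) of 0.05 and are referred to as called (30.4%), of which 2028 were higher (12.8%) and 2790 lower (17.6%) in ATRA+Cfz than in Cfz. With TMM scaling the split was 2395 higher and 2542 lower, and with edgeR 2300 and 2399. Counts of called members in the gene lists below are to be read beside the 12.8% and 17.6% over all genes tested. At least 2-fold differences, counted without a test, were seen for 1115 genes (7.04%), 460 higher (2.91%) and 655 lower (4.14%). Differences are given on the log2(FPM + 0.5) scale with the standard error (SE) of the fit. Each side of the comparison is 1 library, so its spread was taken from the ATRA and DMSO libraries, and no value has a replicate check of its own. The labels do not say that the libraries came from separate cultures, so p-values measure only the spread between the ATRA and DMSO libraries. For ATRA+Cfz against Cfz they assume that the lone ATRA+Cfz and Cfz libraries vary like those, which was not tested. With single lanes in place of whole libraries 2238 to 2305 genes were called, and with DESeq2 3108.

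The largest rises were those of HAPLN3, CYP26A1, MFGE8 and ABCB1. HAPLN3, a link protein that holds hyaluronan and proteoglycans together, had 98.8 FPM in ATRA+Cfz and 0.656 FPM in Cfz, a 151-fold difference (log2 6.42 ± 0.18 SE, limma, Benjamini-Hochberg adjusted p = 2.1e-09). CYP26A1, the cytochrome P450 that breaks down retinoic acid, had 4316 FPM in ATRA+Cfz and 51.4 FPM in Cfz, which is 84.0-fold (log2 6.38 ± 0.10 SE, adjusted p = 7.9e-12). MFGE8, a secreted protein that binds phosphatidylserine on dying cells, had 878 FPM in ATRA+Cfz and 17.8 FPM in Cfz (log2 5.59 ± 0.09 SE). The lowest ATRA+Cfz lane of HAPLN3 was at 95.8 FPM and its highest Cfz lane at 1.58 FPM, but lanes are parts of a library and not replicates. ABCB1, the P-glycoprotein drug efflux pump, had 42.2 FPM in ATRA+Cfz and 0.721 FPM in Cfz, a 58.5-fold difference (log2 5.13 ± 0.22 SE). Carfilzomib itself is known as a substrate of this pump.

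The other large rises were in genes of varied function. SV2B, a synaptic vesicle glycoprotein, had 26.7 FPM in ATRA+Cfz and 0.658 FPM in Cfz. CALCRL, a receptor for calcitonin-related peptides, had 38.2 FPM in ATRA+Cfz and 1.96 FPM in Cfz, and the Toll-like receptor kinase IRAK2 had 41.9 FPM in ATRA+Cfz and 2.29 FPM in Cfz. GBP4, an interferon-inducible GTPase, was at 62.5 FPM with ATRA+Cfz and 3.67 FPM with Cfz, and DDIT4, a stress-induced inhibitor of mTORC1, at 95.6 FPM in ATRA+Cfz and 6.17 FPM in Cfz. The potassium channel KCNH4 (log2 3.81 ± 0.18 SE) and SERINC2 (log2 3.77 ± 0.28 SE) rose by similar amounts. CPNE5, a calcium-dependent membrane-binding protein, had 110 FPM in ATRA+Cfz and 5.89 FPM in Cfz, and its value is uncertain because its lanes differed beyond sampling noise. TRIM31, a ubiquitin ligase, ACSM5, a mitochondrial acyl-CoA synthetase, and UBD were nearly silent without ATRA. They stood at 14.0, 10.1 and 8.56 FPM in ATRA+Cfz, against 3, 1 and 2 reads in the Cfz library. Their log2 differences (4.38, 4.23 and 3.84) depend on the 0.5 FPM added before the logarithm and are no measure of a fold.

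**Figure D1:**
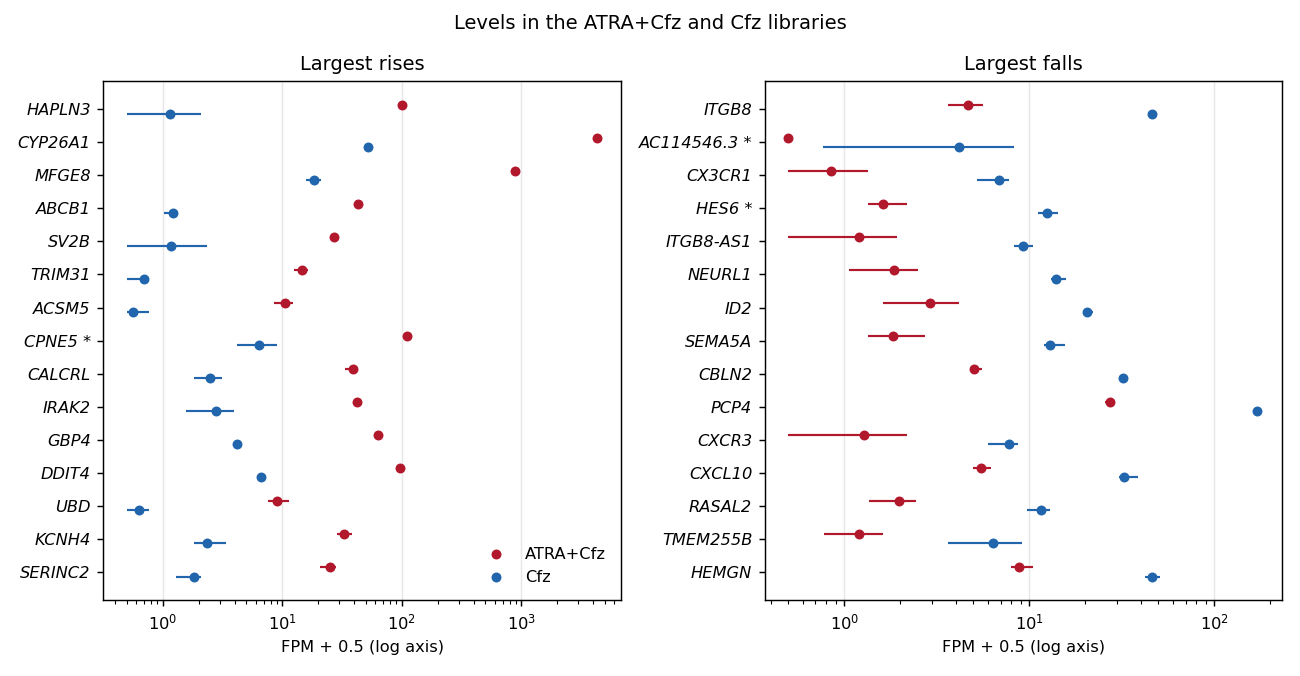
Levels of the 15 genes with the largest rises (left) and the 15 with the largest falls (right), as FPM + 0.5 on a log axis, with ATRA+Cfz in red and Cfz in blue. Points are library means, lines span the 4 lanes, and an asterisk marks genes whose lanes differed beyond sampling noise. CYP26A1 reached 4316 FPM in ATRA+Cfz against 51.4 FPM in Cfz. The genes were picked by the size of this difference and lanes are not replicates, so distance between lanes is no added support.

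Among the promoters of these 15 genes, 2 held a direct repeat with the spacing that retinoic acid receptors are known to bind. The windows ran from 250 bases before to 50 bases after each RefSeq start (GRCh38.p14). The motif searched was a pair of hexamers, each being AGGTCA or AGTTCA or GGGTCA or GGTTCA, in the same direction and separated by any 5 bases, on either strand. The promoters of CYP26A1 (chr10:93073643-93073942, plus strand) and TRIM31 (chr6:30113041-30113340, minus strand) are shown because they carried it. Both are read 5′ to 3′ along the gene, with the repeat in capitals.
CYP26A1: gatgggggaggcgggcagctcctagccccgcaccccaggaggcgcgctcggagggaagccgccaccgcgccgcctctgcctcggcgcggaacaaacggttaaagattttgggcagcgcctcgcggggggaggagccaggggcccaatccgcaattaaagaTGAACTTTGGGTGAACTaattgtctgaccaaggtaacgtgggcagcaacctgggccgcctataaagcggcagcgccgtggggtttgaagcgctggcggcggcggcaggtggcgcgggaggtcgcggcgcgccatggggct
TRIM31: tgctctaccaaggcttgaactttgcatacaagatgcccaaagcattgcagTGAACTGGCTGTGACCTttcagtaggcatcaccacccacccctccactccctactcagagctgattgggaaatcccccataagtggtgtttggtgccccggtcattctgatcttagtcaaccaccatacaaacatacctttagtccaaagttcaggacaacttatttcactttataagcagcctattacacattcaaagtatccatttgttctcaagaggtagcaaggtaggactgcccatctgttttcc
In CYP26A1 the repeat lay 74 to 90 bases before the start, and read on the opposite strand it is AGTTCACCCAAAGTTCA. In TRIM31 it lay 184 to 200 bases before the start and reads AGGTCACAGCCAGTTCA on the opposite strand. CYP26A1 had a second start window that did not hold the repeat. Over all 35116 windows the motif occurred in 31 (0.0883%), against 2 of the 26 windows of the 15 genes with the largest rises (7.69%) and 0 of the 16 windows found for 12 of the genes with the largest falls. A match describes letters in these windows and is no measurement of receptor binding.

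The largest falls were in genes of varied function as well. ITGB8, the integrin subunit that activates latent TGF-beta, had 4.17 FPM in ATRA+Cfz and 45.4 FPM in Cfz (log2 -3.30 ± 0.25 SE, limma, Benjamini-Hochberg adjusted p = 2.8e-06). Its antisense neighbour ITGB8-AS1 had 0.707 FPM in ATRA+Cfz and 8.79 FPM in Cfz, but the strand setting is not stated, so the 2 genes may share reads. ID2, which blocks basic helix-loop-helix factors by dimerising with them, had 2.40 FPM in ATRA+Cfz and 20.1 FPM in Cfz (log2 -2.83 ± 0.18 SE). The fractalkine receptor CX3CR1 had 0.352 FPM in ATRA+Cfz and 6.36 FPM in Cfz, and CXCR3, a chemokine receptor of activated lymphocytes, had 0.773 FPM in ATRA+Cfz and 7.28 FPM in Cfz. CXCL10, a ligand of CXCR3, fell as well, with 5.02 FPM in ATRA+Cfz and 32.2 FPM in Cfz (log2 -2.57 ± 0.41 SE). Other falls of this size were NEURL1 (-2.91), a ubiquitin ligase of Notch ligands, the axon guidance gene SEMA5A (-2.82), the synapse organiser CBLN2 (-2.68), the calmodulin regulator PCP4 (-2.64), the Ras GTPase activator RASAL2 (-2.55), TMEM255B (-2.41) and HEMGN (-2.38). HES6 (1.13 FPM in ATRA+Cfz, 12.0 FPM in Cfz) and AC114546.3 (0 FPM in ATRA+Cfz, 3.65 FPM in Cfz) are uncertain because their lanes differed.

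Of 14 tested retinoid response genes, 8 rose and 1 fell, with a median log2 difference of 0.56, beside a median of 0.0 over all genes tested. The count was 8 higher and 0 lower without ATRA 1, and 6 higher and 0 lower with DESeq2. CD38, a surface ectoenzyme and the target of therapeutic myeloma antibodies, had 376 FPM in ATRA+Cfz and 39.0 FPM in Cfz, a 9.63-fold difference (log2 3.25 ± 0.11 SE, limma, Benjamini-Hochberg adjusted p = 8.6e-09). ASB2, a ubiquitin ligase subunit induced by retinoic acid in leukaemia cells, had 33.6 FPM in ATRA+Cfz and 6.83 FPM in Cfz. Both phospholipases of the PLAAT family that were called rose, PLAAT4 with 24.7 FPM in ATRA+Cfz and 4.52 FPM in Cfz, and PLAAT2 with 20.8 FPM in ATRA+Cfz and 3.93 FPM in Cfz. The receptors themselves moved less. RARA had 88.2 FPM in ATRA+Cfz and 58.5 FPM in Cfz (log2 0.59 ± 0.07 SE), RARB rose at a low level (1.77 FPM in ATRA+Cfz, 0.523 FPM in Cfz), RXRA fell (15.3 FPM in ATRA+Cfz, 21.6 FPM in Cfz) and RARG was not called (8.36 FPM in ATRA+Cfz, 7.94 FPM in Cfz). DESeq2 gave RARB no adjusted p. The retinal reductase gene DHRS3 was too low to test, at 0.283 FPM in ATRA+Cfz and 0.131 FPM in Cfz.

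The OAS genes rose while interferon-stimulated genes as a whole split. The OAS enzymes are antiviral sensors of double-stranded RNA. OAS1 had 115 FPM in ATRA+Cfz and 13.6 FPM in Cfz (8.44-fold), OAS3 had 47.1 FPM in ATRA+Cfz and 10.4 FPM in Cfz, and OAS2 had 102 FPM in ATRA+Cfz and 37.2 FPM in Cfz. Of 34 tested type I interferon-stimulated genes, 11 rose and 5 fell (median -0.01). The ubiquitin-conjugating enzyme UBE2L6 (87.4 FPM in ATRA+Cfz, 47.7 FPM in Cfz) and the nuclear body protein SP100 (77.5 FPM in ATRA+Cfz, 50.7 FPM in Cfz) rose, and the antiviral GTPase MX1 fell (12.7 FPM in ATRA+Cfz, 25.0 FPM in Cfz). With DESeq2, 9 of the list were higher and 1 lower. The transcription factor IRF1 had 229 FPM in ATRA+Cfz and 79.4 FPM in Cfz (log2 1.52 ± 0.06 SE), and the interferon gamma receptor chain IFNGR1 had 45.1 FPM in ATRA+Cfz and 22.2 FPM in Cfz. Interferon signalling and sensing genes were called higher for 7 of 25 and lower for 3, and for 10 and 7 without DMSO 3.

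Antigen presentation genes moved in both directions. Of 16 tested MHC class I genes, 3 rose and 5 fell (median -0.13), and 2 and 3 with DESeq2. Over all genes tested, limma called 12.8% higher and 17.6% lower. The peptide-trimming aminopeptidases ERAP2 (409 FPM in ATRA+Cfz, 279 FPM in Cfz) and ERAP1 (211 FPM in ATRA+Cfz, 162 FPM in Cfz) were higher, and HLA-E, the ligand of the NK cell receptor NKG2A, was lower (113 FPM in ATRA+Cfz, 208 FPM in Cfz). B2M, the light chain of MHC class I, stood at 1682 FPM in ATRA+Cfz and 1603 FPM in Cfz and was not called. The immunoproteasome subunits PSMB8 (30.0 FPM in ATRA+Cfz, 38.9 FPM in Cfz) and PSMB9 (19.7 FPM in ATRA+Cfz, 25.1 FPM in Cfz) were called lower in limma but not with edgeR or DESeq2. UBD, the ubiquitin-like modifier FAT10 that sends proteins to the proteasome, is among the large rises given above.

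Plasma cell identity genes moved in both directions, 12 of 23 higher and 7 lower (median 0.26). XBP1, a transcription factor of secretory cells, had 2260 FPM in ATRA+Cfz and 800 FPM in Cfz (log2 1.5 ± 0.06 SE, limma, Benjamini-Hochberg adjusted p = 2.2e-08). SDC1, the plasma cell surface marker CD138, had 924 FPM in ATRA+Cfz and 330 FPM in Cfz. PRDM1, the repressor that drives plasma cell differentiation, rose by less (669 FPM in ATRA+Cfz, 455 FPM in Cfz), as did the BCMA receptor gene TNFRSF17 (275 FPM in ATRA+Cfz, 179 FPM in Cfz). Of 16 tested surface targets of immunotherapy, 5 rose and 4 fell (median 0.07). SLAMF7 had 388 FPM in ATRA+Cfz and 740 FPM in Cfz, GPRC5D had 26.7 FPM in ATRA+Cfz and 65.0 FPM in Cfz, and CD48 had 80.0 FPM in ATRA+Cfz and 214 FPM in Cfz. The joining chain JCHAIN fell too (3008 FPM in ATRA+Cfz, 4157 FPM in Cfz), and so did the histone methyltransferase NSD2 (117 FPM in ATRA+Cfz, 224 FPM in Cfz). IRF4, on which myeloma cells depend, was at 958 FPM in ATRA+Cfz and 1114 FPM in Cfz and was not called.

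Beyond ABCB1, transporters of the ABC family included the cholesterol exporters ABCA1 (15.1 FPM in ATRA+Cfz, 0.922 FPM in Cfz) and ABCG1 (9.27 FPM in ATRA+Cfz, 1.51 FPM in Cfz), both of which rose. Of 20 tested members 7 were higher and 2 lower (median 0.05). The sterol regulator SREBF1, which drives fatty acid synthesis genes, had 80.9 FPM in ATRA+Cfz and 14.4 FPM in Cfz (log2 2.45 ± 0.16 SE). Of 24 cholesterol synthesis and uptake genes, SREBF1 included, 6 were higher and 3 lower, and 7 and 6 without DMSO 3. DHCR7 was higher (43.6 FPM in ATRA+Cfz, 25.6 FPM in Cfz), and EBP (28.9 FPM in ATRA+Cfz, 58.4 FPM in Cfz) and SQLE (11.9 FPM in ATRA+Cfz, 23.8 FPM in Cfz) were lower.

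Most stress genes controlled by ATF4, the transcription factor of the integrated stress response, rose. Of 27 tested, 19 were higher and 1 lower (median 0.57). SLC7A11, the cystine importer, had 115 FPM in ATRA+Cfz and 38.0 FPM in Cfz (log2 1.58 ± 0.10 SE), and the tryptophanyl-tRNA synthetase WARS1 had 126 FPM in ATRA+Cfz and 59.7 FPM in Cfz. DDIT3, which encodes the pro-apoptotic factor CHOP, had 22.2 FPM in ATRA+Cfz and 8.06 FPM in Cfz (log2 1.4 ± 0.17 SE), and ATF4 itself had 372 FPM in ATRA+Cfz and 262 FPM in Cfz. The serine synthesis enzymes PSAT1, PHGDH and PSPH and the folate enzyme MTHFD2 were all called higher, by log2 0.83, 0.65, 0.67 and 0.57. The very low density lipoprotein receptor VLDLR was the member that fell. ATRA alone also raised 19 of these genes against DMSO (median 0.40), where 21.3% of all genes tested were called higher.

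Heat shock genes were higher in 13 of 24 cases and lower in 1, HSF1, the transcription factor of the response (median 0.23). HSPD1, the mitochondrial chaperonin HSP60, had 2307 FPM in ATRA+Cfz and 1479 FPM in Cfz (log2 0.64 ± 0.06 SE). HSP90AA1 had 2803 FPM in ATRA+Cfz and 2087 FPM in Cfz, and the cochaperone DNAJB1 had 192 FPM in ATRA+Cfz and 134 FPM in Cfz. HSPA1B, the stress-inducible HSP70, had 573 FPM in ATRA+Cfz and 270 FPM in Cfz, and HSPA1A had 101 and 62.7 FPM with no call. The 2 genes are near-identical copies whose reads may be split either way, and the lanes of both differed, so these values are uncertain. In the ER unfolded protein response, 3 of 20 rose and 6 fell (12.8% and 17.6% over all genes tested), and 5 and 10 without DMSO 3. XBP1, the kinase gene ERN1 (302 FPM in ATRA+Cfz, 200 FPM in Cfz) and the cochaperone DNAJB9 (193 FPM in ATRA+Cfz, 124 FPM in Cfz) rose, and folding enzymes of the ER lumen such as PDIA4 (290 FPM in ATRA+Cfz, 396 FPM in Cfz) and PDIA6 (526 FPM in ATRA+Cfz, 720 FPM in Cfz) fell.

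Of 25 tested ubiquitin and autophagy genes, 13 rose and 0 fell (median 0.30). SQSTM1, the autophagy receptor p62, had 3214 FPM in ATRA+Cfz and 1894 FPM in Cfz (log2 0.76 ± 0.06 SE, limma, Benjamini-Hochberg adjusted p = 2.0e-06), the receptor NBR1 had 188 FPM in ATRA+Cfz and 129 FPM in Cfz, and the polyubiquitin gene UBB (423 FPM in ATRA+Cfz, 298 FPM in Cfz) rose too. Of 33 constitutive proteasome genes, 4 were higher and 3 lower (median 0.02), against 2 and 1 with DESeq2, 3 and 1 without ATRA 2 and 9 and 4 without DMSO 3. PSMB5, the subunit that carfilzomib binds, had 51.9 FPM in ATRA+Cfz and 53.5 FPM in Cfz (log2 -0.04 ± 0.11 SE) and was not called. The assembly factor POMP had 125 FPM in ATRA+Cfz and 97.5 FPM in Cfz and was called higher. Among oxidative stress genes bound by NRF2, 4 of 19 rose and 4 fell. Those that fell numbered 1 without ATRA 1 and 0 without ATRA 2, while 4 rose in each case. ME1, the malic enzyme, rose (140 FPM in ATRA+Cfz, 80.0 FPM in Cfz), and HMOX1, the heme oxygenase, was at 177 FPM in ATRA+Cfz and 159 FPM in Cfz and was not called.

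Survival and death genes of the BCL2 family changed on both sides. Of 21 tested, 10 rose and 4 fell (median 0.37), and 9 and 1 with DESeq2. MCL1, on which most myeloma cells rely for survival, had 1577 FPM in ATRA+Cfz and 574 FPM in Cfz (log2 1.46 ± 0.05 SE, limma, Benjamini-Hochberg adjusted p = 2.1e-08). BCL2L1, which encodes the survival protein BCL-XL, had 122 FPM in ATRA+Cfz and 265 FPM in Cfz (log2 -1.12 ± 0.06 SE), and BCL2 had 203 FPM in ATRA+Cfz and 137 FPM in Cfz. Of the pro-apoptotic members, BAK1 (75.3 FPM in ATRA+Cfz, 48.9 FPM in Cfz), BMF (131 FPM in ATRA+Cfz, 89.3 FPM in Cfz) and BCL2L11 (160 FPM in ATRA+Cfz, 142 FPM in Cfz) rose, and BAX fell (17.2 FPM in ATRA+Cfz, 24.2 FPM in Cfz). Death receptor signalling genes TNFRSF10B and its ligand TNFSF10 fell, by 0.48 and 0.75 on the log2 scale. Of 19 p53 target genes 4 rose and 8 fell (median -0.21), against 4 and 5 without ATRA 1, and 4 and 4 with edgeR and with DESeq2. The CDK inhibitor CDKN1A rose (62.6 FPM in ATRA+Cfz, 23.7 FPM in Cfz), as did MDM2, the ubiquitin ligase of p53 (805 FPM in ATRA+Cfz, 553 FPM in Cfz), and PLK2 fell (6.02 FPM in ATRA+Cfz, 24.7 FPM in Cfz). Of 16 NF-kB target genes 5 rose and 6 fell, and 2 and 4 with DESeq2.

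**Figure D2:**
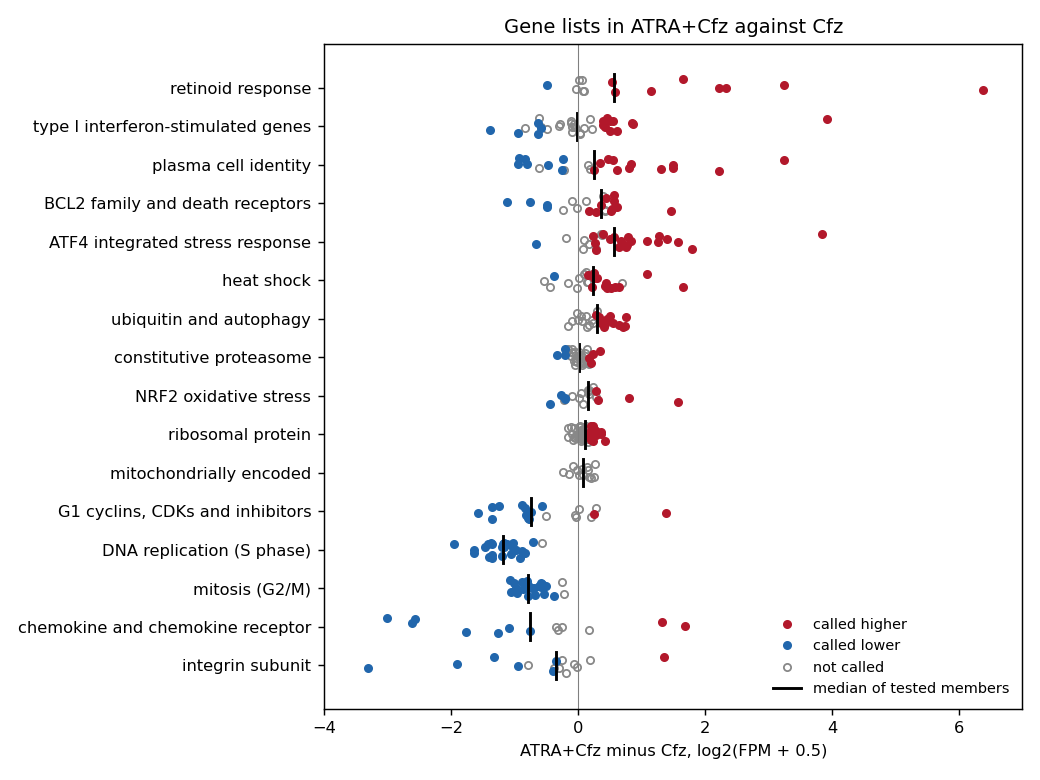
Log2(FPM + 0.5) differences, ATRA+Cfz minus Cfz, of the tested members of 16 gene lists. Each circle is a gene, red where called higher, blue where called lower and open where not called, and black bars are list medians. DNA replication genes lay to the left with a median of -1.18, ATF4 genes to the right with a median of 0.57, and constitutive proteasome genes around a median of 0.02.

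Most cell cycle genes fell. Of 26 DNA replication genes, 25 were lower and 0 higher (median -1.18), and the count of lower genes was 25 without any one of the 6 ATRA and DMSO libraries too. The replicative helicase subunits MCM5 (44.2 FPM in ATRA+Cfz, 138 FPM in Cfz), MCM4 (143 FPM in ATRA+Cfz, 385 FPM in Cfz) and MCM2 (76.9 FPM in ATRA+Cfz, 177 FPM in Cfz) fell, as did UHRF1, which maintains DNA methylation at replication (23.3 FPM in ATRA+Cfz, 92.3 FPM in Cfz, log2 -1.96 ± 0.09 SE, limma, Benjamini-Hochberg adjusted p = 5.7e-08). Of 25 mitosis genes, 23 fell (median -0.79), among them the proliferation marker MKI67 (392 FPM in ATRA+Cfz, 776 FPM in Cfz), the topoisomerase TOP2A (251 FPM in ATRA+Cfz, 451 FPM in Cfz) and CDK1 (72.2 FPM in ATRA+Cfz, 132 FPM in Cfz). Of 19 G1 genes 11 fell and 2 rose (median -0.74). The kinase CDK2 (19.4 FPM in ATRA+Cfz, 50.6 FPM in Cfz), the cyclin CCND2 (947 FPM in ATRA+Cfz, 1686 FPM in Cfz) and E2F1, the factor that switches on replication genes (15.3 FPM in ATRA+Cfz, 46.4 FPM in Cfz), were lower, and the 2 that rose were the inhibitors CDKN1A and CDKN1B. In bulk RNA, fewer cycling cells and less of each RNA per cell cannot be told apart. MYC, a driver of growth genes, rose (569 FPM in ATRA+Cfz, 339 FPM in Cfz, log2 0.75 ± 0.05 SE). Of 28 MYC network and nucleolar genes 6 rose and 7 fell (12.8% and 17.6% over all genes tested), and 7 and 11 without DMSO 3. Those that fell included the lactate dehydrogenase LDHA (625 FPM in ATRA+Cfz, 1103 FPM in Cfz) and CDK4 (65.2 FPM in ATRA+Cfz, 96.9 FPM in Cfz).

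Of 73 ribosomal protein genes tested, 17 rose and 0 fell (median 0.11), but 11 rose without ATRA 2 and 42 rose and 3 fell without DMSO 3. RPL24 had 480 FPM in ATRA+Cfz and 356 FPM in Cfz (log2 0.43 ± 0.06 SE). Of the 13 mitochondrially encoded genes 0 were called in limma, with edgeR or with DESeq2, 1 had an unadjusted p under 0.05, and without DMSO 3 limma called 6 higher and 2 lower. Their log2 differences ran from -0.24 to 0.27. ATRA without Cfz raised 72 of the ribosomal protein genes (median 0.29) and lowered 8 of the mitochondrially encoded ones (median -0.38). Over all genes tested, ATRA against DMSO called 21.3% higher and 27.4% lower. The mitochondrial count was 4 without any one ATRA library, 11 without DMSO 1 and 12 without DMSO 2 or DMSO 3. With TMM scaling 1 mitochondrial gene was higher and 5 were lower, with edgeR 1 and 6, and with DESeq2 1 and 3. In limma the interaction was called negative for 2 ribosomal protein genes. Leaving out DMSO 3 gave 63 such calls (1034 of 15836 over all genes tested), whereas leaving out each other ATRA or DMSO library in turn gave 0. The count was also 0 with TMM scaling and with edgeR, and it was 5 with median-ratio scaling and 6 with DESeq2. For mitochondrially encoded genes (median interaction 0.47) limma called 0, with 5 at an unadjusted p under 0.05, and edgeR called 0. DESeq2 called 1, which was negative. Without DMSO 3, the library with the high mitochondrial share, limma called 11 positive and 1 negative.

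Genes of migration and adhesion fell more often than they rose. Of 13 chemokines and chemokine receptors, 7 fell and 2 rose (median -0.76). CXCR4, the receptor that holds myeloma cells in the bone marrow, rose (88.4 FPM in ATRA+Cfz, 27.0 FPM in Cfz, log2 1.69 ± 0.13 SE), and CCR1 (187 FPM in ATRA+Cfz, 317 FPM in Cfz), CCL3 (92.2 FPM in ATRA+Cfz, 221 FPM in Cfz) and CCL5 (2.91 FPM in ATRA+Cfz, 11.2 FPM in Cfz) fell. Of 15 integrin subunits 6 fell and 1 rose (median -0.35). ITGA3 rose (38.3 FPM in ATRA+Cfz, 14.6 FPM in Cfz), while ITGA6 (14.6 FPM in ATRA+Cfz, 37.4 FPM in Cfz) and ITGA8 (135 FPM in ATRA+Cfz, 262 FPM in Cfz) fell. ITGB7, which pairs with ITGA4 in lymphocyte homing, was at 9481 FPM in ATRA+Cfz and 8314 FPM in Cfz and was not called. Among 12 helix-loop-helix ID and HES genes 2 rose and 6 fell (median -0.30), and 1 rose without any one ATRA library or DMSO 1. ID1 rose (7.85 FPM in ATRA+Cfz, 2.43 FPM in Cfz) although ID2 and ID3 (0.637 FPM in ATRA+Cfz, 2.49 FPM in Cfz) fell, and the E protein TCF3 fell too (162 FPM in ATRA+Cfz, 237 FPM in Cfz).

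Called genes were unevenly spread over gene classes. Levels were not matched between the classes, so the shares called are no measure of how strongly a class responded. Of 12416 protein-coding genes tested, 1738 were higher and 2669 lower (35.5% called). Of 1000 antisense genes, 90 were higher and 28 lower (11.8% called, median 0.21), and of 800 long intergenic noncoding genes 76 were higher and 22 lower (12.2% called). Antisense genes may share reads with the genes they overlap, since the strand setting is not stated.

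The second question is whether ATRA acted alike after Cfz and without it. ATRA+Cfz against Cfz and ATRA against DMSO share no library, so their log2 differences are separate measurements. Their calls are not separate, because the spread for both came from the same ATRA and DMSO libraries. A gene with a low spread there is more easily called in both, so the overlaps of calls are partly built in. In ATRA against DMSO, limma called 7704 genes (48.7%), 3368 higher and 4336 lower. The median SE was 0.15 for ATRA+Cfz against Cfz and 0.09 for ATRA against DMSO, because ATRA against DMSO rests on 3 libraries a side. Of the 4818 genes called after Cfz, 4515 (93.7%) had the same sign without Cfz and 3943 (81.8%) were also called in the same direction, whereas over all genes tested 75.0% had the same sign. A total of 62 genes were called in opposite directions, and 813 were called after Cfz but not without it. In the other direction, 3699 genes were called without Cfz but not after it, and 51.2% of the 7704 called without Cfz were also called in the same direction after it. Of the 785 genes that were called and at least 2-fold changed without Cfz, 776 (98.9%) had the same sign after it.

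Of these 785 genes, 550 (70.1%) were also called and at least 2-fold changed in the same direction after Cfz. Of the 1006 genes called and at least 2-fold changed after Cfz, 54.7% were so without it. Among the 785, those that rose at least 2-fold with ATRA alone had a median log2 difference of 1.43 after Cfz and 1.41 without it, and those that fell had medians of -1.21 after Cfz and -1.24 without it. MFGE8 differed by 5.59 after Cfz and 5.53 without it, ABCB1 by 5.13 after Cfz and 5.37 without it, and OAS1 by 3.03 after Cfz and 3.02 without it. XBP1 differed by 1.5 after Cfz and 1.56 without it, and ITGB8 by -3.30 after Cfz and -3.34 without it. Across the 15827 genes the effects correlated with Pearson's r of 0.78 and Spearman's rho of 0.69, as a description over genes, which are not independent replicates.

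**Figure D3:**
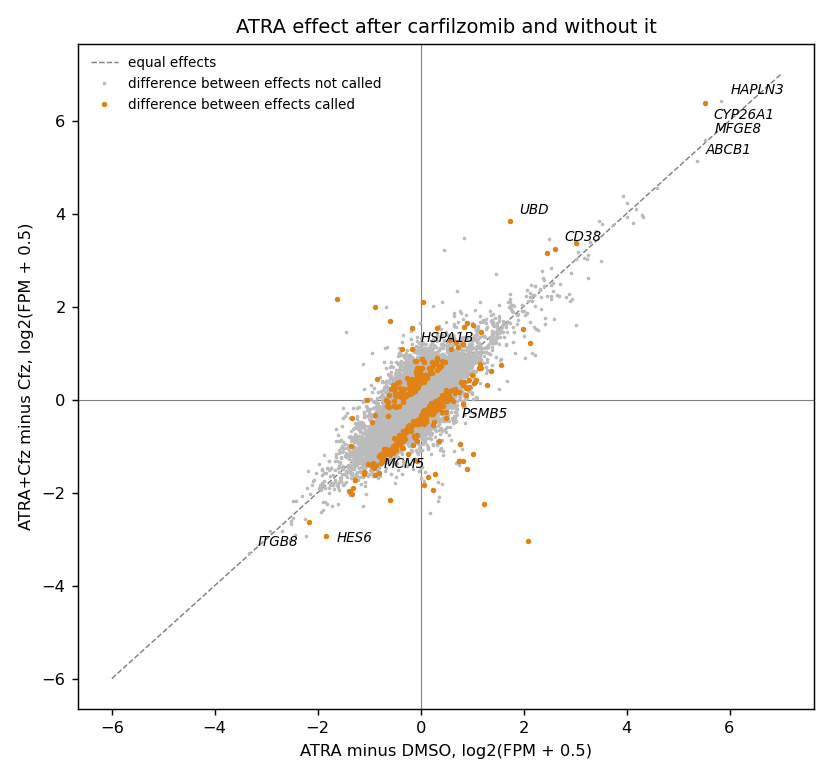
ATRA effect after Cfz (vertical axis, ATRA+Cfz minus Cfz) against the ATRA effect without it (horizontal axis, ATRA minus DMSO), both in log2(FPM + 0.5), for the 15827 genes tested. Orange points are the 364 genes for which the difference between the effects was called, and the dashed line marks equal effects. MFGE8 and ITGB8 lay near the line, CYP26A1, CD38 and UBD above it, and PSMB5 and MCM5 below it.

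The difference between the effects was tested as an interaction, (ATRA+Cfz minus Cfz) minus (ATRA minus DMSO). In limma 364 of 15827 genes were called (2.3%), 157 positive (0.992%) and 207 negative (1.31%), and 2858 had an unadjusted p under 0.05. This count depended on single libraries. It was 2, 8 and 35 without ATRA 1, 2 and 3, 240 and 164 without DMSO 1 and DMSO 2, and 1985 without DMSO 3. For the 43 called genes named here and in the closing section, the interaction kept its sign without any one of these libraries. These genes were picked by their call, and the ATRA+Cfz and Cfz libraries could not be left out. The kept sign is therefore no test of stability. Only 2 of the 43, MCM5 and AC114546.3, kept their call in all 6 cases. The calls below are given with that limit.

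CYP26A1 had 4316 FPM in ATRA+Cfz, 51.4 FPM in Cfz, 3822, 3814 and 3808 FPM in the ATRA libraries and 79.0, 77.7 and 92.9 FPM in the DMSO libraries. The ATRA+Cfz value was above all ATRA values and the Cfz value below all DMSO values, and the interaction was 0.86 ± 0.12 (SE, limma, Benjamini-Hochberg adjusted p = 0.0122). It was 0.78 without DMSO 3, and the call was kept in 4 of the 6 cases with a library left out. CD38 had 376 FPM in ATRA+Cfz, 39.0 FPM in Cfz, 434, 426 and 433 FPM with ATRA and 64.7, 67.5 and 79.5 FPM with DMSO. Here both libraries with Cfz were below their counterparts, and the interaction was 0.64 ± 0.13 (adjusted p = 0.0292, and 0.56 without DMSO 3). The call of CD38 was kept in 3 of the 6 cases. UBD had 8.56 FPM in ATRA+Cfz, 0.131 FPM in Cfz, 1.89, 1.87 and 1.65 FPM with ATRA and 0.351, 0.182 and 0.0664 FPM with DMSO. Its level with ATRA+Cfz exceeded every ATRA library, while Cfz and DMSO lay near or under the level of 3 reads. The interaction of 2.11 ± 0.39 (adjusted p = 0.0248) was not called with edgeR (adjusted p = 0.136), and DESeq2 gave it no adjusted p. With a library left out, the call of UBD was kept in 3 of the 6 cases. MCL1 (interaction 0.29) and the mitochondrial folate enzyme ALDH1L2 (0.71) were called positive as well. The call of MCL1 was lost with edgeR (adjusted p = 0.054), and among the 6 cases with a library left out it was kept in 1, without DMSO 3.

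Heat shock genes gave 4 positive interactions among 24, and 9 positive and 1 negative without DMSO 3, but 0 without ATRA 1 or ATRA 2. Over all genes tested 0.992% were called positive, and 951 of 15836 without DMSO 3. HSP90AA1 had 2803 FPM in ATRA+Cfz, 2087 FPM in Cfz, 1228, 1213 and 1226 FPM with ATRA and 1256, 1261 and 1280 FPM with DMSO. DNAJB1 had 192 FPM in ATRA+Cfz, 134 FPM in Cfz, 101, 100 and 105 FPM with ATRA and 102, 106 and 110 FPM with DMSO. In both, ATRA and DMSO libraries without Cfz lay close together (log2 differences of -0.05 each), and the interactions were 0.48 ± 0.07 and 0.57 ± 0.08 (limma, Benjamini-Hochberg adjusted p = 0.0122 each). Their calls were kept in 3 and 4 of the 6 cases with a library left out. HSPA1B (1.25) was called too and is uncertain as said above, and HSPA4L (0.36) was the fourth.

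Proteasome genes went the other way. ATRA against DMSO raised 31 of 33 constitutive proteasome genes (median 0.37), while 4 rose after Cfz (median 0.02). Over all genes tested, 21.3% were called higher in ATRA against DMSO and 12.8% after Cfz. The median SE was 0.15 after Cfz and 0.09 without it, so genes were harder to call after Cfz. The interaction was called negative for 20 and positive for 0 (median -0.38), beside 1.31% negative over all genes tested. The count of negative calls was 20 with edgeR, 24 with DESeq2 and 32 without DMSO 3. It was 0 without ATRA 1 or ATRA 2 and 2 without ATRA 3. Without DMSO 3, limma called 1034 of all 15836 genes negative. PSMB5 had 51.9 FPM in ATRA+Cfz, 53.5 FPM in Cfz, 47.5, 43.0 and 46.0 FPM with ATRA and 30.5, 30.8 and 27.2 FPM with DMSO. DMSO was thus the lowest of the 4 conditions and the other conditions lay closer together, with an interaction of -0.66 ± 0.12 (limma, Benjamini-Hochberg adjusted p = 0.0245, and -0.60 without DMSO 3). The call of PSMB5 was kept in 3 of the 6 cases with a library left out. DMSO was the lowest condition for PSMB4 too, with 487 FPM in ATRA+Cfz, 475 FPM in Cfz, 421 to 428 FPM with ATRA and 282 to 291 FPM with DMSO. Summed over the 33 genes, the level was 8687 FPM in ATRA+Cfz, 8517 FPM in Cfz, 6315 to 6379 FPM with ATRA and 4805 to 4856 FPM with DMSO. NRF2 genes had 4 negative interactions of 19, PIR (-0.92), TALDO1 (-0.67), SRXN1 (-0.51) and TXN (-0.41), and the autophagy gene GABARAPL1 had one of -0.82.

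**Figure D4:**
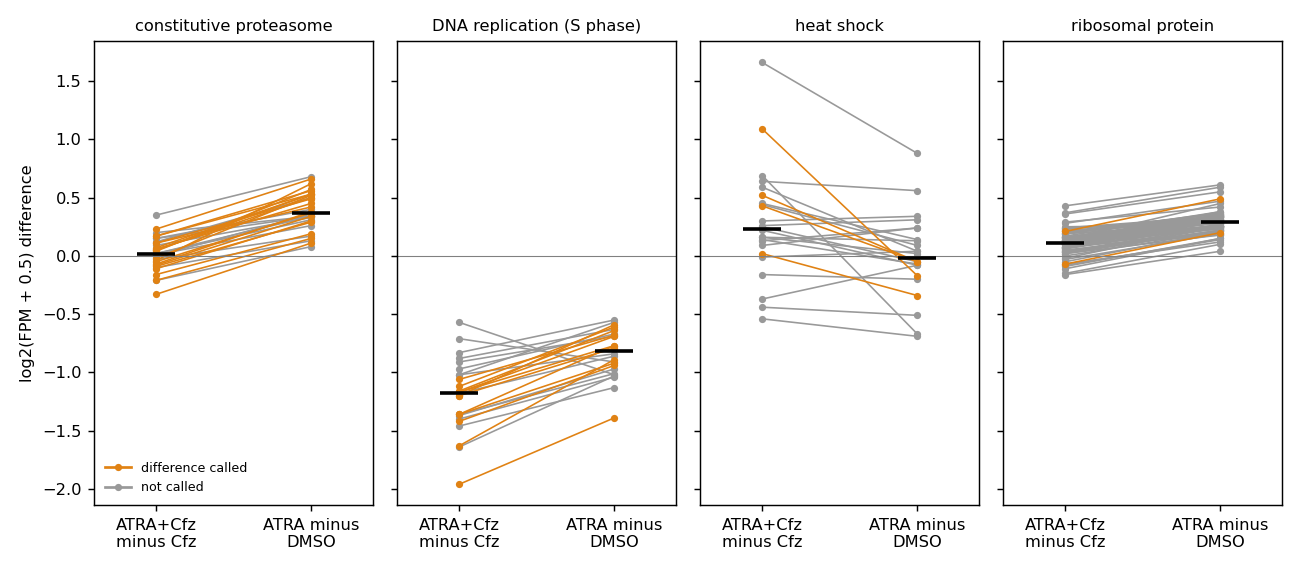
ATRA effect after Cfz (left of each panel) and without it (right), in log2(FPM + 0.5), for the genes of 4 lists. Lines join the same gene, orange where the difference between the effects was called, and black bars are list medians. Proteasome genes lay around 0.02 after Cfz and 0.37 without it, DNA replication genes around -1.18 after Cfz and -0.81 without it, heat shock genes around 0.23 after Cfz and -0.02 without it, and ribosomal protein genes around 0.11 after Cfz and 0.29 without it.

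DNA replication genes fell with ATRA in both settings, with a median of -1.18 after Cfz and -0.81 without it. The interaction was called negative for 12 of 26 (median -0.40), for 19 without DMSO 3 and for 1, 2 and 4 without ATRA 1, 2 and 3. Over all genes tested 1.31% were called negative, and 1034 of 15836 without DMSO 3. MCM5 had 44.2 FPM in ATRA+Cfz, 138 FPM in Cfz, 94.8, 94.4 and 95.7 FPM with ATRA and 178, 176 and 175 FPM with DMSO. The ATRA+Cfz library was the lowest of the 8, and the interaction was -0.74 ± 0.07 (limma, Benjamini-Hochberg adjusted p = 2.3e-03). E2F1 had 15.3 FPM in ATRA+Cfz, 46.4 FPM in Cfz, 40.4, 38.3 and 41.9 FPM with ATRA and 73.0, 70.1 and 69.4 FPM with DMSO, with an interaction of -0.76 ± 0.10 (adjusted p = 0.0122). Mitosis genes, by contrast, had medians of -0.79 after Cfz and -0.72 without it, and the interaction was called in limma for 0 of 25, with 1 at an unadjusted p under 0.05 and 0 with edgeR and DESeq2. Without DMSO 3, 3 mitosis genes were called, 1 positive and 2 negative. MKI67 differed by -0.98 after Cfz and -1.12 without it.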

How the data were processed

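RNA-seq was measured in 8 MM.1S libraries, each on 4 lanes. The deposited table gives reads per gene as FPM, fragments scaled by library depth (a CPM with no length term; deposited values came out as whole reads for 100% of values within 0.01 read). Per the submitters' processing notes, fastp 0.20.0, kallisto 0.46.2 and DESeq2 were used. Genome build, annotation and strand setting: not given in the sources used here. Of 24402 lines, 143 gene IDs were repeated with identical values and each ID was used once. Lanes were averaged, log2(FPM + 0.5) was fitted with limma 3.58.1 (trend) over all 8 libraries, and genes with a mean of the 4 group means of at least 0.5 FPM were kept. Benjamini-Hochberg adjustment ran over all 15827 genes, with calls under 0.05. The fit was run on simulated data in which all 8 libraries were given the spread of the ATRA and DMSO libraries. That run could not test whether the ATRA+Cfz and Cfz libraries vary like them. Alternatives used edgeR 4.0.16 and DESeq2 1.42.0 on recovered reads, other scalings, filters and pseudocounts, single lanes, and each ATRA or DMSO library left out.

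Genes were named as the 15 largest rises and 15 largest falls among called genes with at least 2 FPM in the higher library, the 8 most positive and 8 most negative called interactions, 2 to 4 members of each list with the smallest p, and 26 fixed genes. Other list members given as examples were chosen after their values were seen. The comparison and the lists were chosen with earlier results of these data known. Names came from the table for 17006 IDs and from GENCODE 29 for 6482, and promoters from RefSeq (GRCh38.p14). A few genes are not reported here.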

Additional observations from a re-analysis of the deposited data

Results flagged for a closer look

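For 43 named genes the ATRA effect after Cfz was called different from that without Cfz. The test was of the difference itself, (ATRA+Cfz minus Cfz) minus (ATRA minus DMSO) in log2(FPM + 0.5), at a limma Benjamini-Hochberg adjusted p under 0.05. With an ATRA or DMSO library left out, only 2 of the 43 kept the call in all 6 cases. CDK4, CHKB-CPT1B, HSPA4L, LDHA, MCL1 and ZBTB47-AS1 kept it in 1. With DESeq2, 24 kept the call, 5 lost it and the others had no adjusted p. The difference was positive for ALDH1L2 (0.71), CD38 (0.64), CYP26A1 (0.86), DNAJB1 (0.57), HSP90AA1 (0.48), HSPA4L (0.36), MCL1 (0.29), PSAT1 (0.41) and UBD (2.11). It was negative for ADRM1 (-0.44), CDK4 (-0.40), E2F1 (-0.76), EBP (-0.52), GABARAPL1 (-0.82), LDHA (-0.31), MCM2 (-0.61), MCM4 (-0.49), MCM5 (-0.74), PCP4 (-0.47), PIR (-0.92), PSMB4 (-0.53), PSMB5 (-0.66), PSMB7 (-0.43), SRXN1 (-0.51), TALDO1 (-0.67), TXN (-0.41) and UHRF1 (-0.58).

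Values were uncertain, because lanes of a library differed beyond sampling noise, for AC006064.6 (2.89), ANKRD36BP1 (3.78), SMG1P1 (1.23), CHKB-CPT1B (1.30), HSPA1B (1.25), AC114546.3 (-5.14), AP001267.1 (-3.48), AL139300.1 (-1.91) and HES6 (-1.10). CHKB-CPT1B is also a read-through transcript that overlaps its parent genes. The ribosomal RNA-like genes FP236383.2 (-2.07), FP236383.3 (-2.07) and FP671120.3 (-2.07) had identical values, 261 FPM in ATRA+Cfz and 656 FPM in Cfz, and cannot be told apart. Among short or noncoding genes the difference was called for RN7SL1 (2.05), ZBTB47-AS1 (1.44), MT-TS1 (-2.19) and AC006116.7 (-2.14). RN7SL1, the RNA of the signal recognition particle, had 11.8 FPM in ATRA+Cfz and 2.36 FPM in Cfz, against 1.83 ± 0.30 FPM with ATRA and 1.77 ± 0.45 FPM with DMSO (SD, n = 3 each). ZBTB47-AS1 is an antisense gene and may share reads with its partner.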

How the results depend on the processing

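For ATRA+Cfz against Cfz, 3108 genes were called with DESeq2, 2275, 2305, 2238 and 2283 from lanes 1 to 4 alone, and 4297 to 6275 with 1 ATRA or DMSO library left out (6275 without DMSO 3). For ATRA against DMSO, lanes 1 to 4 alone gave 4858, 4849, 4871 and 4880 genes and leaving out a library 6678 to 8226. For the interaction, leaving out a library gave 2 to 1985 genes and lanes 1 to 4 alone gave 17, 3, 0 and 6, where the 0 is limma's count. Median-ratio scaling called 134 positive and 354 negative interactions and DESeq2 72 and 228, against 157 and 207 in the fit reported. Of the named genes, 3 reversed, AC006064.6 from lane 2 alone (-0.61), AP001267.1 from lane 1 alone (0.45) and AL139300.1 from lane 1 alone (1.93, and 0.75 for its interaction). The cause was not tested. Of 140 named genes called after Cfz, 41 lost the call in some setting and 7 of them in a setting other than single lanes or DESeq2. DESeq2 gave no adjusted p for 21 results of named genes.

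Replicate numbers did not pair the libraries (correlations -0.00584, -0.00206 and 0.00555), and a replicate block gave 4698 called genes for ATRA+Cfz against Cfz, 7621 for ATRA against DMSO and 241 for the interaction. One library a side limits every value after Cfz.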
